A study of Mus musculus with 6 samples.

Results

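The vesicular glutamate transporters (VGLUTs) were examined in hippocampal RNA-seq of wild-type (WT) and transgenic (TG) mice, as the 3 genes named Slc17a6, Slc17a7 and Slc17a8 in a table of 54532 genes. All 3 genes were found in the table and all 3 were abundant enough to be tested. In the TG mice, CRISPR/Cas9 placed G82R and L85P into exon 3 of Slc1a2, which encodes the astrocytic glutamate transporter GLT-1, on the C57BL/6N background, and the WT mice of the study were their littermates. There were 3 libraries per group, written WT1, WT2, WT3, TG1, TG2 and TG3 after the numbered mice of the labels, and lists of values follow this order. The variant mice and WT littermates of the paper were of both sexes. They went through behavioural tests, among them fear conditioning with electric shocks. Whether the sequenced mice were among the tested mice is not stated, and no other treatment is given for either group. Age, sex and zygosity of the sequenced mice are not given in the sources used here, and the changes are present in every cell of the mouse and not only in astrocytes.

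VGLUTs sit in the membrane of synaptic vesicles and load them with glutamate, using the electrochemical gradient that the vacuolar proton ATPase builds. Slc17a7 encodes VGLUT1, the transporter of hippocampal and cortical principal neurons, Slc17a6 encodes VGLUT2, which is typical of thalamic and other subcortical neurons and of some cortical and subicular cells, and Slc17a8 encodes VGLUT3, which is found in scattered neurons such as a class of cholecystokinin interneurons. Astrocytic GLT-1 acts at the other end of the same path and clears glutamate after release.

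The reads on genes lay between 16081281 and 18751057 per library. FPKM (fragments per kilobase of gene, scaled to the depth of the library) is given with the standard deviation (SD) over 3 libraries, and differences are on log2(FPKM + 0.1). Slc1a2 itself had an FPKM between 177 and 202 in WT and between 207 and 222 in TG libraries (limma, log2 fold change 0.16, unadjusted p = 0.102, adjusted p = 0.789), and FPKM cannot show which bases were read. The paper reports by Western blot that GLT-1 protein was almost absent from the hippocampus of its TG mice. The mRNA level given here is thus no measure of the protein. Of 15 choroid plexus genes, summed FPKM lay between 59.6 and 83.8 in the WT libraries, at 67.2 in TG3, at 1225 in TG1 and at 3871 in TG2. TG1 and TG2 therefore stood apart from the rest, and each difference between TG and WT given for the VGLUT genes was also computed without both of them.

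The 3 genes are relatives, so the first question was whether short reads can be assigned to each of them. Between the coding sequences, 71.9% of the aligned bases were identical for Slc17a6 and Slc17a7, 70.7% for Slc17a6 and Slc17a8, and 69.0% for Slc17a7 and Slc17a8. The longest run of identical bases was 25, between Slc17a6 and Slc17a8. The stretch of 60 coding bases in which the genes are most alike lies in exon 2 of each gene, and it is shown because reads there are the hardest to tell apart. Its GRCm38 positions are chr7:51625418-51625477 on the plus strand for Slc17a6, chr7:45168852-45168911 on the plus strand for Slc17a7 and chr10:89606633-89606692 on the minus strand for Slc17a8. Capitals mark the 14 positions at which the 3 genes are not all alike, and the other 46 are the same in all of them.
Slc17a6: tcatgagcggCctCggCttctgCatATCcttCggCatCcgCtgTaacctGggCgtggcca
Slc17a7: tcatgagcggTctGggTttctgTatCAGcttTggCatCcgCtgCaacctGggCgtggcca
Slc17a8: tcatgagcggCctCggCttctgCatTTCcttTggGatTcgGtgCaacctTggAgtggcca

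The least alike of the compared stretches of 60 bases lies near the start of the coding sequence in exon 1, and it shows how far the bases of the 3 genes differ there. It spans chr7:51622661-51622720 in Slc17a6, chr7:45164085-45164144 in Slc17a7 and chr10:89620799-89620858 in Slc17a8, on the same strands as above. Capitals again mark positions that are not alike in all 3 genes, here 38 of 60.
Slc17a6: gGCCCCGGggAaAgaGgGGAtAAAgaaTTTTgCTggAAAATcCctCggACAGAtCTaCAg
Slc17a7: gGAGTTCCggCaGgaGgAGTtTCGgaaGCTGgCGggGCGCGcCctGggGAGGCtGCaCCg
Slc17a8: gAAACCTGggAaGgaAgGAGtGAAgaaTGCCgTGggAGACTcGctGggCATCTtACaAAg

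Over all annotated transcripts, none of the 50-base stretches of Slc17a6 or Slc17a7 occurred in a transcript of another gene, and 60 of the 4664 stretches of Slc17a8 (1.29%) did. Of the genes that overlap a VGLUT gene, Gm45072 in Slc17a6 had 0 reads in every library and the microRNA gene Mir7055 in Slc17a7 had at most 1, while no gene of the table overlaps Slc17a8. The counts of the 3 genes were therefore almost free of shared sequence.

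Slc17a7 was by far the most abundant VGLUT gene, followed by Slc17a6 and then Slc17a8, in each of the 6 libraries. The ranges of the 3 genes did not overlap. Slc17a7 (ENSMUSG00000070570, chromosome 7 from 45163949 to 45176142) reached 291, 294 and 237 FPKM in the WT libraries against 322, 272 and 283 in the TG libraries. It ranked 79th of the 30589 genes with any read. WT3 was the lowest library and TG1 the highest, and the other 4 lay between 272 and 294, so that the groups overlapped.

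Slc17a6 (ENSMUSG00000030500, chromosome 7 from 51622006 to 51671119) reached 3.76, 2.18 and 3.80 FPKM in the WT libraries against 3.42, 3.19 and 5.76 in the TG libraries. WT2 was low and TG3 was high, while the other 4 libraries lay between 3.19 and 3.80. The reads were 190 in WT2 and 562 in TG3, with 95% Poisson intervals of 1.88 to 2.51 and 5.30 to 6.26 FPKM, against 2.85 to 4.20 over the other 4 libraries. The low and the high library thus lay outside the counting error of the rest, with the reservation that such intervals cover counting error only.

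Slc17a8 (ENSMUSG00000019935, chromosome 10 from 89574020 to 89621253, minus strand) reached 0.584, 0.774 and 0.871 FPKM in the WT libraries against 1.16, 0.886 and 0.727 in the TG libraries. These values rested on 51 to 87 reads per library. The exact Poisson interval of the lowest library, WT1, was 0.435 to 0.768 and that of the highest, TG1, was 0.933 to 1.44, and these were apart. The interval of TG3, 0.558 to 0.932, also ended just below that of TG1, and all other pairs of libraries overlapped.

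**Figure D1:**
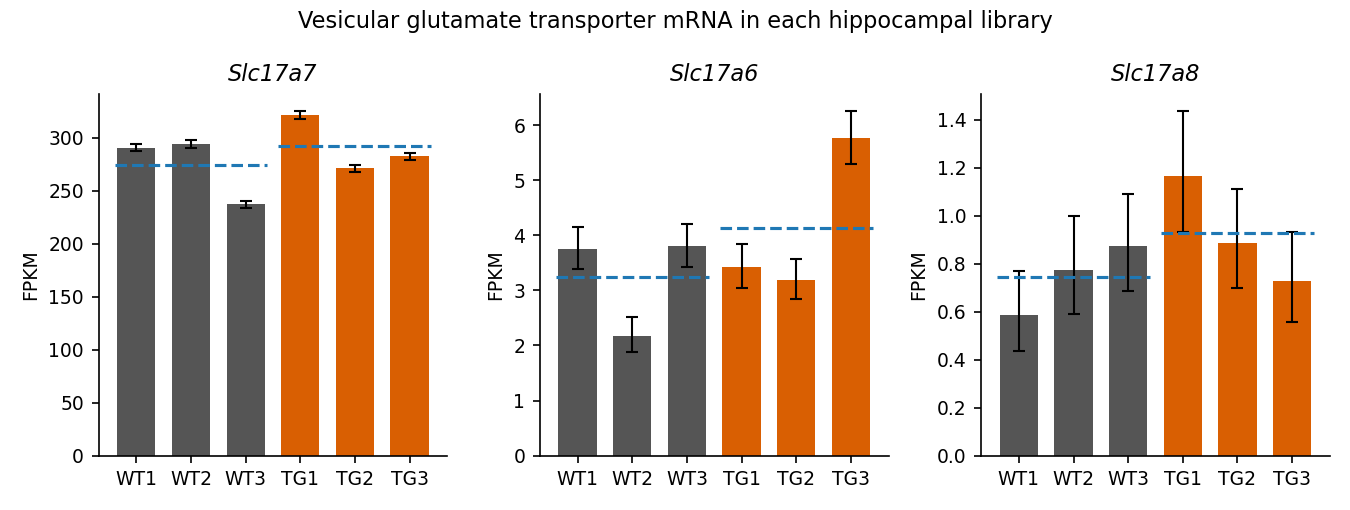
FPKM of Slc17a7, Slc17a6 and Slc17a8 in each library (bars, WT grey and TG orange) with 95% Poisson intervals of the reads (whiskers) and the group means (dashed lines). Each axis starts at 0 and has its own range. WT3 is lowest and TG1 highest for Slc17a7, WT2 lowest and TG3 highest for Slc17a6, and WT1 lowest and TG1 highest for Slc17a8.

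Within a library, Slc17a7 was 49.0 to 135 times as abundant as Slc17a6, and Slc17a6 was 2.82 to 7.92 times as abundant as Slc17a8. Slc17a7 made up 97.8% to 99.0% of the summed FPKM of the 3 genes, Slc17a6 0.733% to 1.99% and Slc17a8 0.198% to 0.360%. These levels depend on the gene length used for FPKM. The deposited lengths (5392 bases for Slc17a7, 5399 for Slc17a6 and 4720 for Slc17a8) equal the union of all annotated exons. For Slc17a7 this union includes retained introns, and its longest coding transcript has 2915 bases, or 54.1% of it, against 76.6% for Slc17a6 and 94.4% for Slc17a8. With the length of that transcript, an alternative chosen after seeing the data, the mean ratio of Slc17a7 to Slc17a6 was 119 in place of 83.9, and that of Slc17a6 to Slc17a8 was 5.76 in place of 4.68. The order of the genes was the same with either length.

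The spread between libraries of one group differed among the genes. On the log2 scale, the SD within groups was 0.45 for Slc17a6, while the median was 0.15 over 5340 genes with a mean FPKM within 2-fold of it, and 94.8% of those genes had a smaller SD. For Slc17a7 the SD was 0.15 (median 0.11 over 179 genes of like level, 72.1% smaller), and for Slc17a8 it was 0.28 (median 0.32 over 4232 genes, 42.7% smaller). Slc17a6 therefore varied more within groups than most genes of its level, whereas Slc17a8 did not.

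The question of the comparison was whether VGLUT mRNA differs in the hippocampus of mice with altered GLT-1. All 3 genes had a higher mean in TG than in WT libraries, but none of these differences passed the test. Slc17a7 averaged 274 ± 31.9 FPKM in the WT and 292 ± 26.4 FPKM in the TG group (SD, n = 3). The log2 fold change was 0.09 (standard error 0.119, 95% interval -0.19 to 0.37) with an adjusted p of 0.850 in limma, so the interval runs from 0.879-fold to 1.30-fold. Without WT3 the log2 fold change was -0.01, so the direction rested on that library.

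Slc17a6 averaged 3.24 ± 0.923 FPKM in the WT and 4.12 ± 1.42 FPKM in the TG group (SD, n = 3). The log2 fold change was 0.33 (standard error 0.285, 95% interval -0.34 to 1.00) with an adjusted p of 0.789 in limma. The interval reaches from 0.791-fold to 2.00-fold and is the widest of the 3 genes. Without WT2 the log2 fold change was 0.07, and without TG3 it was 0.07 as well. Without TG1 and TG2 it was 0.85, where TG3 alone stands for the TG mice and is assumed to vary like the WT libraries. When the mean log2 level of the choroid plexus list entered the model, the value for Slc17a6 was 0.80 (unadjusted p = 0.0407, adjusted p = 0.9996 in limma). That list was high in TG1 and TG2 only, so this estimate also rests largely on TG3. The same model gave 0.09 for Slc17a7 (unadjusted p = 0.662 in limma) and 0.12 for Slc17a8 (unadjusted p = 0.734 in limma).

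Slc17a8 averaged 0.743 ± 0.146 FPKM in the WT and 0.926 ± 0.221 FPKM in the TG group (SD, n = 3). The log2 fold change was 0.28 (standard error 0.236, 95% interval -0.28 to 0.83) with an adjusted p of 0.789 in limma, an interval from 0.826-fold to 1.78-fold. Without TG1 it was 0.11, without WT1 0.13 and without both TG1 and TG2 -0.01. The higher values of Slc17a8 among the TG mice thus came from the libraries that stood apart in choroid plexus RNA. Of these, TG2 had the larger choroid plexus sum (3871 against 1225 in TG1) but the lower Slc17a8 level (0.886 against 1.16 FPKM). WT3, with a sum of 74.5, reached 0.871 FPKM. The part of that tissue in the difference was not tested.

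At an adjusted p under 0.05, 0 of 3 VGLUT genes were called, against 0.00955% of the 20952 genes tested. At an unadjusted p under 0.05, 0 of 3 were called in limma, against 5.91% of all genes, and limma-voom on recovered reads called 0 of 3 at either threshold as well. The WT and TG values overlapped for each of the 3 genes, while the groups did not overlap in 12.1% of all genes. In bulk tissue, fewer cells of a type and less RNA per cell cannot be told apart.

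**Figure D2:**
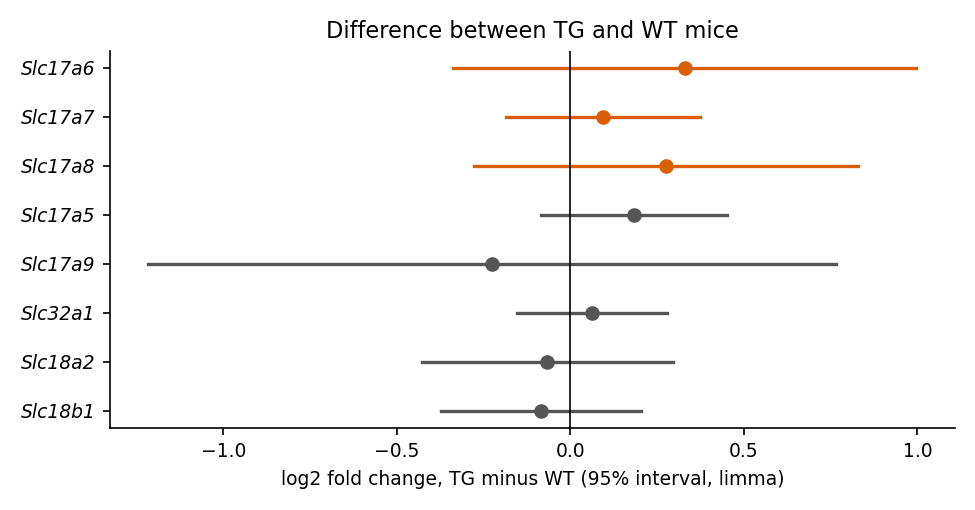
Log2 fold change of TG against WT mice (points) with the 95% interval from limma (lines) for the VGLUT genes (orange) and for the other tested genes of the Slc17 family and of vesicular transmitter transport (grey). Every interval includes 0, and those of Slc17a9 and Slc17a6 are the widest.

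The summed FPKM of the VGLUT genes, which depends on how libraries are scaled to one another, was 295, 297 and 242 in the WT libraries against 326, 276 and 289 in the TG libraries. The difference of its log2 was 0.10 (two-sided exact permutation test, p = 0.6). Ratios within a library do not depend on that scaling. The ratio of Slc17a6 to Slc17a7 had a log2 of -6.27, -7.08 and -5.97 in the WT libraries against -6.56, -6.41 and -5.62 in the TG libraries. The means differed by 0.24 (exact permutation test, p = 0.6), and the difference was -0.07 without WT2 and -0.05 without TG3.

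The ratio of Slc17a8 to Slc17a7 had a log2 of -8.96, -8.57 and -8.09 in the WT libraries against -8.11, -8.26 and -8.60 in the TG libraries, a difference of 0.22 (exact permutation test, p = 0.7). Slc32a1 encodes the vesicular carrier of GABA and glycine, and the ratio of Slc17a7 to Slc32a1 sets the main excitatory against the inhibitory carrier. Its log2 was 3.45, 3.54 and 3.08 in the WT libraries against 3.35, 3.38 and 3.42 in the TG libraries. The difference was 0.03 (exact permutation test, p = 1.0), and it was -0.11 without WT3 (exact permutation test, p = 0.1). Without WT3, both other WT libraries lay above every TG library, and 0.1 is also the smallest p which that smaller comparison allows. The SD of this ratio was 0.24 among WT and 0.03 among TG libraries. After adjustment over these 4 tests the p-values were 0.933 to 1.0, where 0.1 is the smallest unadjusted p that 3 against 3 libraries allow.

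**Figure D3:**
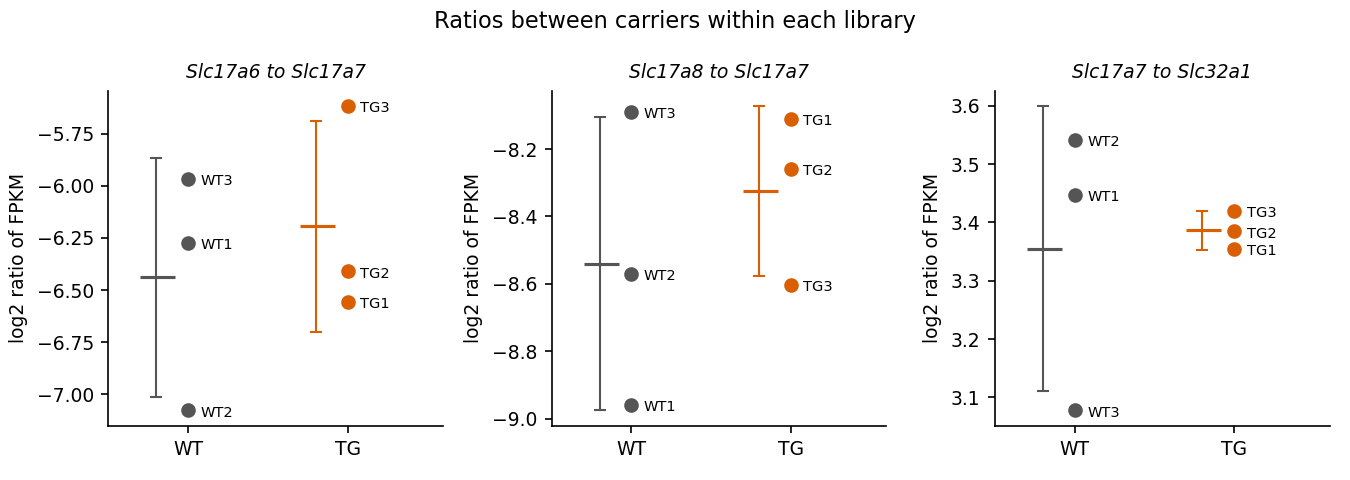
Log2 ratio of FPKM between pairs of carriers in each library (points, labelled by library) with the group mean and SD (line and whiskers to the left). The groups overlap in all 3 panels. WT2 and TG3 lie at the ends for Slc17a6 to Slc17a7, and WT3 is the lowest library for Slc17a7 to Slc32a1.

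Among the rest of the Slc17 family, Slc17a5 (sialin, the lysosomal carrier of sialic acid) was the most abundant, at 5.37, 6.61 and 6.35 FPKM in the WT libraries against 7.67, 6.89 and 6.27 in the TG libraries, and so lay above Slc17a6 in each library. Its log2 fold change was 0.18 (adjusted p = 0.789 in limma). Slc17a9, the vesicular nucleotide transporter, had 4 to 9 reads per library and a log2 fold change of -0.23 (adjusted p = 0.901 in limma). The phosphate transporter genes Slc17a1 and Slc17a4 had 0 reads in all 6 libraries, which allows an FPKM of up to 0.0799 for Slc17a1 and 0.0317 for Slc17a4 in the library with the highest limit of 3 reads. Slc17a2 had 1 read in WT2 and in TG1, and Slc17a3 had 1 read in WT3.

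Of the carriers for other transmitters, Slc32a1 had an FPKM of 25.3 to 28.1 in WT and 26.0 to 31.5 in TG libraries (log2 fold change 0.06, adjusted p = 0.871 in limma). Slc18a2, the monoamine carrier, had 1.19 to 1.59 and 1.25 to 1.38 (log2 fold change -0.07, adjusted p = 0.923), and the polyamine carrier Slc18b1 had 6.29 to 7.07 and 5.55 to 7.35 (log2 fold change -0.08, adjusted p = 0.872). The other monoamine carrier Slc18a1 and the acetylcholine carrier Slc18a3 had at most 13 and 4 reads and were below the limit for testing. None of the tested carriers was called.

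**Figure D4:**
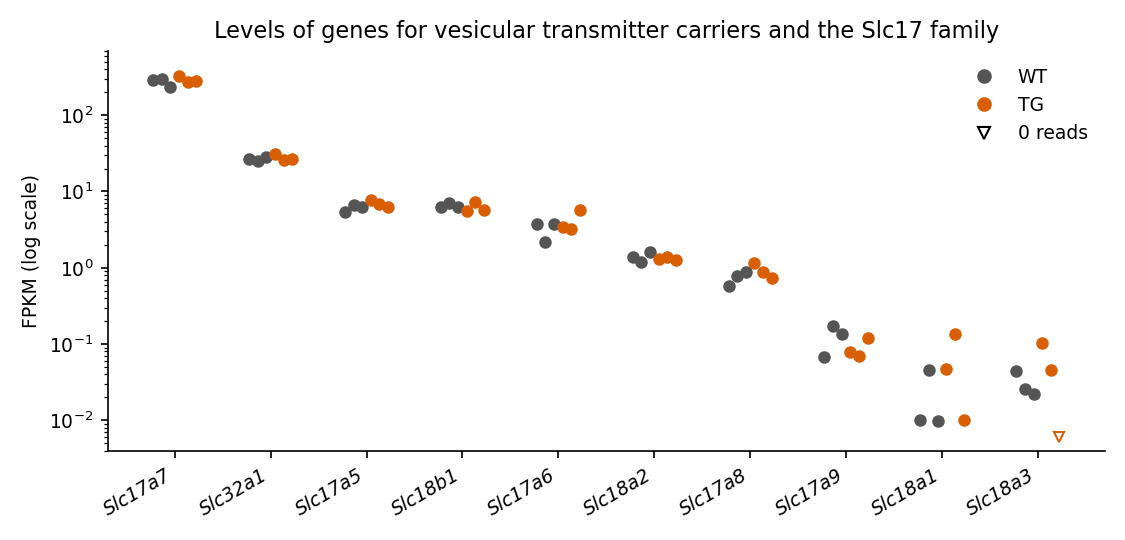
FPKM on a log axis for the vesicular transmitter carriers and those members of the Slc17 family with more than single reads, in each library (WT grey, TG orange, an open triangle for 0 reads). Slc17a7 lies highest in every library, Slc32a1 next, and Slc17a6 and Slc17a8 lie among genes of low level.

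The vacuolar ATPase supplies the gradient for VGLUTs, and 17 of its subunit and accessory genes were tested. None passed the test at an adjusted or an unadjusted p under 0.05, 15 of 17 had a negative log2 fold change, and the groups did not overlap in 3 of 17, beside 12.1% of all genes. The median was -0.11, beside -0.00 over all genes tested, and it was -0.17 without WT2 and -0.02 without WT3, the library with the highest summed FPKM of the list (1622, against 1361 to 1431 in the others). Atp6v0c, the proton-carrying subunit, had the lowest p there and a log2 fold change of -0.19 (adjusted p = 0.786 in limma), and Atp6v1g2, its most abundant gene, had -0.14 (adjusted p = 0.789).

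Among 11 genes of glutamate and glutamine supply, none passed the threshold after adjustment. A single gene passed the unadjusted threshold, higher in the TG group, beside 5.91% of all genes in either direction. This was Slc38a2, a glutamine transporter, with 14.7, 13.0 and 12.8 FPKM in the WT libraries against 16.1, 16.4 and 16.8 in the TG libraries (log2 fold change 0.28, adjusted p = 0.786 in limma). Glul, the glutamine synthetase gene and the most abundant of the list, had a log2 fold change of -0.01. The list's median was 0.02. Of 14 genes of synaptic vesicles and release, none passed either test, with a median of 0.00 and log2 fold changes from -0.12 for Snap25, a membrane fusion protein, to 0.08.

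Markers of the neurons that use each VGLUT were compared beside it. Of 12 principal neuron genes, none passed the test at an adjusted p under 0.05, and the median log2 fold change was -0.00. At the unadjusted threshold 1 of 12 was called, higher in TG, beside 5.91% of all genes in either direction. The groups did not overlap in 1 of 12, beside 12.1% of all genes. Their medians relative to the WT mean were -0.09, 0.02 and 0.05 in the WT libraries against 0.09, -0.01 and 0.08 in the TG libraries. Single members went different ways, as Camk2a, a kinase gene of excitatory neurons, was lowest in WT3 and highest in TG1 like Slc17a7, whereas Nrgn, a calmodulin-binding protein gene and the most abundant of the list, and the transcription factor gene Neurod6 were highest in WT3.

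For Slc17a6, markers of the subiculum and of the thalamus were followed, which border the hippocampus and hold neurons with VGLUT2. Relative to the WT mean, Slc17a6 lay at 0.25, -0.51 and 0.26 in the WT libraries and at 0.12, 0.02 and 0.85 in the TG libraries. The median of 4 subiculum genes was 0.25, -0.07 and -0.07 in the WT and 0.33, 0.10 and 0.44 in the TG libraries, highest in TG3 as for Slc17a6 but without its low value in WT2. Singly, Nts and Tshz2 were highest in TG3, Fn1 in TG1 and Nxph4 in WT1. Of these 4 genes, 1 passed the unadjusted threshold with a higher level in TG, beside 5.91% of all genes in either direction. This was the neuropeptide gene Nts, with 3.73 to 4.24 FPKM in WT and 4.34 to 5.59 in TG libraries (adjusted p = 0.786 in limma). The summed FPKM of the 4 genes was 11.4 to 14.7 in WT and 13.2 to 17.7 in TG libraries, and none of the 4 was at 0 in any library.

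Of 10 thalamus genes, 9 were tested and none passed either test. The median log2 fold change was 0.17, with 8 of 9 positive, and it was 0.34 without WT1, 0.09 without WT2 and -0.04 without WT3. Ntng1, a netrin-family membrane protein and the most abundant of them, was lower in each TG library than in any WT library (log2 fold change -0.15, adjusted p = 0.789 in limma). By library, the list's median relative to the WT mean was 0.24, 0.06 and -0.26 in the WT libraries against 0.12, 0.11 and 0.24 in the TG libraries, and the summed FPKM was 15.8 to 23.5 in WT and 18.8 to 20.6 in TG libraries. Gbx2, a defining transcription factor of thalamic neurons, was listed at 0 in 5 of 6 libraries and had 1 read in WT1. The thalamus median of TG3 was thus close to that of WT1, the highest. Lef1, Rgs16 and Plekhg1 of this list were each highest in TG3. Tcf7l2, Prkcd, Synpo2, Zic1 and Zic4 were instead highest in WT1, as was Gbx2, and Ntng1 was highest in WT2. The part of dissection or of neighbouring regions in the difference was not tested.

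**Figure D5:**
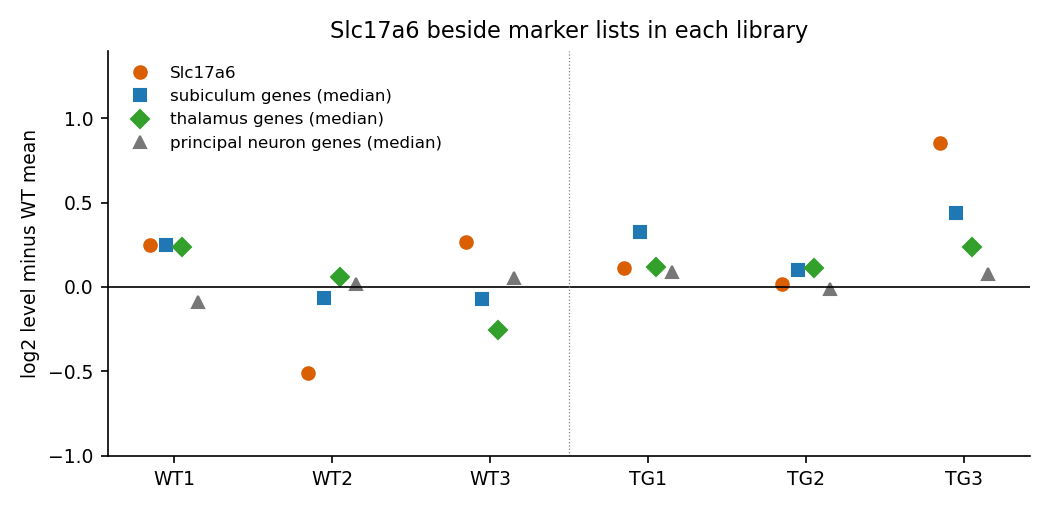
Log2 level relative to the WT mean in each library for Slc17a6 (orange circles) and the medians of 4 subiculum genes (blue squares), 9 thalamus genes (green diamonds) and 12 principal neuron genes (grey triangles). Slc17a6 lies at -0.51 in WT2 and 0.85 in TG3, and the subiculum median is highest in TG3 at 0.44.

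For Slc17a8, 6 genes of cholecystokinin interneurons and 7 general GABA neuron genes were followed, and none passed either test. The cholecystokinin list had 6 of 6 negative log2 fold changes with a median of -0.14 (-0.23 without WT2 and -0.09 without WT3), beside the positive value of Slc17a8. Its most abundant gene, Cck, had 211 to 328 FPKM in WT and 216 to 234 in TG libraries, and Cck is also made by principal neurons. Sncg, whose p was lowest there, had a log2 fold change of -0.19 (adjusted p = 0.789 in limma). The median of the GABA neuron list was -0.00.

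The genes whose log2 FPKM ran most alike to each VGLUT gene were taken by Pearson's r over the 6 libraries, leaving out genes whose mean FPKM was under 1. For Slc17a7 these were Celsr2 (r = 0.999), Plxna1 (0.999) and Hspa12a (0.996), and 752 of 13324 genes had an r over 0.9. For Slc17a6 they were Nr1d2 (0.992), Tbr1 (0.985) and Ppp1r18 (0.984), with 56 genes over 0.9, and for Slc17a8 Gm17530 (0.981), Ppfia4 (0.973) and Zxdb (0.972), with 47 of 13325. More genes thus had an r over 0.9 with Slc17a7, which was low in WT3 and high in TG1, than with either other VGLUT gene. Counting error lowers r, and it differed between the genes. It was at most 0.646% per library for Slc17a7, 4.22% to 7.25% for Slc17a6 and at least 10.7% for Slc17a8. The numbers of genes therefore do not show that the pattern of Slc17a6 or Slc17a8 was less shared. These values describe 6 libraries, all genes of a library share its depth and dissection, and no p is given for them.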

How the data were processed

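Hippocampal RNA-seq of 3 WT and 3 TG mice was used. The authors counted reads per gene with HTSeq and deposited FPKM computed from gene length and read count, with 1 column per library. Per the labels the build was GRCm38 (mm10), while the aligner and strand setting are not given in the sources used here. The paper's methods name Trizol and a NEBNext kit, the labels RNeasy and SMARTER. Multiplied by gene length, 100% of the values came out as whole reads (tolerance 0.05), so reads per gene could be recovered.

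After genes averaging under 0.1 FPKM were left out, the rest entered limma 3.58.1 (R 4.3.3) on log2(FPKM + 0.1), lmFit and eBayes with trend, no covariate, Benjamini-Hochberg adjustment, threshold 0.05. Tested on simulated data, the procedure missed every 1.5-fold change, most 2-fold changes and some 4-fold changes. It also called some unchanged short genes with very few reads. A missed threshold therefore does not show equal levels. Fold changes on this scale understate those of low genes. Ratios within libraries were tested by exact permutation over 20 assignments, and over fewer where a library was left out. Sequences came from GENCODE M21 and were aligned with mafft. The members, 19 further gene lists and rules were chosen with earlier results of these data known. The rule named the 3 members, the Slc17 and carrier families, Slc1a2, the smallest-p and most abundant gene of each list, overlapping genes and the 3 most alike genes by r. Gbx2, Lef1, Rgs16, Plekhg1, Tcf7l2, Prkcd, Synpo2, Zic1, Zic4, Tshz2, Nxph4, Camk2a, Neurod6 and Slco1c1 were named after their values were seen. Alternatives covered pseudocount, filter, scaling, variance model, voom, left-out libraries, replicate block and a choroid plexus covariate. A gene that this rule names is not reported here.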

Additional observations from a re-analysis of the deposited data

How the results depend on the processing

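Over 17 alternatives, no VGLUT gene reached an adjusted p under 0.05 (lowest 0.710). Slc17a6 kept its direction in all 17, from 0.07 to 0.85. Leaving out each library in turn gave 0.07 to 0.48 for Slc17a6, -0.00603 (without WT3) to 0.15 for Slc17a7 and 0.11 to 0.42 for Slc17a8. Leaving out 1 library gave a log2 ratio of Slc17a6 to Slc17a7 from -0.0748 to 0.48, of Slc17a8 to Slc17a7 from 0.00596 to 0.44 and of Slc17a7 to Slc32a1 from -0.11 to 0.12. The filter on a mean FPKM of at least 1 gave no value for Slc17a8, Slc17a9, Chrnb4, Trp73 and Tph2. Leaving out 1 library kept the medians of the principal neuron, glutamate supply, release and GABA neuron lists between -0.06 and 0.06. The cause of each change of direction was not tested.

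Without TG1 and TG2, values turned to -0.0123 for Slc17a8, -0.0626 for its ratio to Slc17a7, 0.00366 for Slc17a9, -0.0136 for Slc32a1, -0.15 for Trp73 and 0.11 for Tph2. With the choroid plexus covariate they turned to 0.0130 for Slc17a9, -0.0825 for Chrnb4, -0.22 for Trp73 and 0.12 for Tph2, and 332 genes were higher and 371 lower at an unadjusted p under 0.05, against 656 and 582. Without 1 library, Slc32a1 ran from -0.0246 (without TG1) to 0.11, Slc18a2 from -0.17 to 0.0271 (without WT3) and Trp73 from -0.0176 (without TG2) to 0.43.

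The 2 genes of the whole table at an adjusted p under 0.05, neither a VGLUT gene, became 9 without the variance trend, 1 at a mean FPKM of at least 1, and 0 with pseudocounts of 0.01 or 1, no filter, voom, the choroid plexus covariate or without TG1 and TG2. Leaving out each library gave 0 to 6 (6 without TG1). With the replicate number as a block, 0 genes were called and Slc17a6 stayed at 0.33 (adjusted p = 0.785 in limma). Same-numbered libraries deviated together with r of 0.0125, 0.0434 and 0.00314, so the numbers were not taken as pairs, and not every library correlated best with its own number. Depth limits Slc17a8 most, with a counting error of at least 10.7% per library, against 4.22% to 7.25% for Slc17a6 and at most 0.646% for Slc17a7.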

Other observations

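Markers of further cells that can hold VGLUT2 or VGLUT3 were low or passed no test. Of 6 genes of Cajal-Retzius cells, early-born neurons of the outer layers, 4 were tested and none was called at either threshold, with a median log2 fold change of 0.02 that ran from -0.08 (without TG1) to 0.11 (without WT1). Reln, the most abundant, had 2.69 to 3.59 FPKM in WT and 2.78 to 3.86 in TG libraries. Trp73 had 0.626 to 0.753 FPKM in WT libraries, 0.765 in TG1, 1.24 in TG2 and 0.620 in TG3. Of 7 habenula genes, 5 were tested and none was called, with a median of 0.15 that was 0.34 without WT1 and -0.000596 without WT2. Chrnb4, a nicotinic receptor subunit, had 0.0717 to 0.116 FPKM in WT libraries, 0.204 in TG1, 0.614 in TG2 and 0.0892 in TG3. Chrnb4 and Trp73 were thus highest in TG2, the library with the highest choroid plexus sum, and the part of that tissue in these values was not tested.

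For the 3 mossy cell genes the median was -0.07 (from -0.19 without WT3 to -0.03 without TG2) and none was called. Calb2, the calretinin gene, had 18.5 to 24.2 FPKM in WT libraries, 19.1 in TG1, 17.5 in TG2 and 12.4 in TG3 (limma, log2 fold change -0.40, adjusted p = 0.786). TG3, the highest library for Slc17a6, was the lowest for Calb2. Of 5 genes of serotonin and acetylcholine neurons, some of which use VGLUT3, 1 was abundant enough to be tested. This was Tph2, with 0.489 to 0.559 FPKM in WT and 0.271 to 0.577 in TG libraries (limma, log2 fold change -0.35, adjusted p = 0.789).

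Among glial and vascular lists none was called at an adjusted p. The median was 0.01 over 7 astrocyte genes (-0.01 without TG3, 0.05 without TG1). It was -0.32 over 6 oligodendrocyte genes and -0.13 without TG1. Over 6 microglia genes it was 0.10, with 0.23 without TG1, 0.02 without TG2 and 0.02 without TG3. Over 5 endothelial genes it was 0.02, with 0.12 without WT1 and -0.02 without TG1. At the unadjusted threshold, which 5.91% of all genes passed, 1 oligodendrocyte gene was lower (Opalin, a myelin protein gene, log2 fold change -0.77), 1 microglia gene was higher (Csf1r, a growth factor receptor, 0.19) and 2 endothelial genes were higher, the receptor gene Flt1 (0.24) and the transporter gene Slco1c1 (0.46). Slco1c1 had 8.60 to 10.1 FPKM in WT libraries, 11.2 in TG1, 17.5 in TG2 and 10.4 in TG3, so it too was highest in the library with the highest choroid plexus sum, whose part was not tested.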
